A study of Mus musculus with 6 samples.

Results

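The 40 genes described here encode the secretory granule exocytosis machinery, the proteins with which endocrine cells dock, prime and fuse hormone granules at the plasma membrane. They were chosen by symbol from 32285 annotated genes, and each was found once in the gene table. Levels were read from single-cell RNA-Seq of mouse islets, in β, α, δ, Ppy and non-endocrine cells. There were 6 libraries, 3 from WT and 3 from β14-3-3ζ-KO mice, all C57/BL6 and 12 to 14 weeks old. KO mice carried Ins1-CreThor and Ywhaz alleles with a floxed exon, and per the study's methods the WT controls also carried Cre. Ywhaz encodes 14-3-3ζ, a scaffold protein, and Cre in the Ins1 locus removes it in insulin-expressing cells, so that the other cell classes were not targeted directly. The study's figure legend gives 3 mice per genotype for these data, but the labels do not say whether each library held 1 mouse. The p-values therefore measure the spread between these libraries.

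In granule exocytosis, SNARE proteins on the granule (VAMPs) and on the plasma membrane (syntaxins and SNAP proteins) zip into a complex that drives fusion. Rab GTPases and their effectors bring granules to the membrane, MUNC13 and CAPS proteins prime them, and synaptotagmins couple fusion to calcium. Tomosyns hold SNAREs in inactive complexes, and NSF with the SNAP adaptors takes spent complexes apart. β cells use this machinery for insulin, and α, δ and Ppy cells use it for glucagon, somatostatin and pancreatic polypeptide.

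Of 43445 barcodes, 14480 were placed in a class: 6235 β, 688 α, 442 δ, 294 Ppy and 6821 non-endocrine cells. An endocrine class needed a leading hormone at least 2 times the next, and 222 of 442 δ cells had a ratio between 2 and 4. The classes held the markers not used to define them. Mafa, a β cell transcription factor, averaged 1067 CPM (UMI counts scaled to a common library total) in β and 55.0 in α cells. Hhex, a δ cell transcription factor, averaged 353 in δ and 11.8 in β cells, and Irx2, a marker of α cells, ranged over libraries from 130 to 183 in α and from 3.68 to 7.11 in β cells. Levels are CPM of UMIs (unique molecular identifiers) after the 7 hormone genes were left out, normalised across libraries with TMM. Levels of markers and of non-endocrine subclasses were not scaled with TMM, so they are on another scale than the class levels. The 3′ assay counts transcript ends, so levels do not scale with transcript length. Median depth ranged from 23509 to 44486 UMIs in β cells and from 5522.5 to 13059.5 in non-endocrine cells. Library pairs shared 7 to 27 barcodes, and 21 classed barcodes occurred in more than 1 library. Ywhaz itself averaged 284 ± 15.1 CPM in WT and 42.5 ± 2.51 in KO β cells (SD, n = 3), a log2 difference of −2.74 (SE 0.0796, edgeR adjusted p = 3.69e-06).

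Sytl4, Pclo, Cadps and Stxbp5l are 4 members with large differences between endocrine classes, chosen after their values were seen, and the 250 bases before their RefSeq start sites (GRCm38.p6) are shown for that reason. Sytl4 lies on the minus strand of chromosome X, Pclo on the plus strand of chromosome 5, Cadps on the minus strand of chromosome 14 and Stxbp5l on the minus strand of chromosome 16. Capitals mark the GC box GGGCGG on either strand.
Sytl4, chrX:133981813-133982062: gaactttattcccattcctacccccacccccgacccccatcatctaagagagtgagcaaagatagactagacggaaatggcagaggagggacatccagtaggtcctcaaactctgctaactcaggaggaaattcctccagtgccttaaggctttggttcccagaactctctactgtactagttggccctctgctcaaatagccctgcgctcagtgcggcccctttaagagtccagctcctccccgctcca
Pclo, chr5:14514668-14514917: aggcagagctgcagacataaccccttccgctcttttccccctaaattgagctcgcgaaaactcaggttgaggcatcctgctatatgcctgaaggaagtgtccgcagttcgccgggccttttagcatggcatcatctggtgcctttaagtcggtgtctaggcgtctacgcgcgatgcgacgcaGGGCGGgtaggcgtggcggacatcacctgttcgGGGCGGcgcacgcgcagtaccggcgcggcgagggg
Cadps, chr14:12823080-12823329: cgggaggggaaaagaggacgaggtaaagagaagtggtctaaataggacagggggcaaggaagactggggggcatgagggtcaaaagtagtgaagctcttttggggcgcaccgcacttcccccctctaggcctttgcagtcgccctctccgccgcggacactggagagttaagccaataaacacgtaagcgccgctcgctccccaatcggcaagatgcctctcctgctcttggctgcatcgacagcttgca
Stxbp5l, chr16:37384959-37385208: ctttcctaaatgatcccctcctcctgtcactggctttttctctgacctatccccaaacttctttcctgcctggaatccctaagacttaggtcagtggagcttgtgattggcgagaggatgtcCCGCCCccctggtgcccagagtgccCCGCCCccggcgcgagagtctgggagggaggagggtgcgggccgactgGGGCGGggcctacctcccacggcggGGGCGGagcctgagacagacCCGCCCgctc
The window of Pclo held 2 GC boxes and that of Stxbp5l held 5, while these letters were absent from the windows of Sytl4 and Cadps. Of the members, 30 had 35 windows in the table, and 60% of those windows held a GC box against 32.7% of all 32851. The E-box CAGCTG was in 22.9% of member windows and 13.0% of all, and the TATA box TATAAA in 11.4% and 12.4%. The PDX1 core TAATTA and TTCAGCACC, part of the RE1 element, were in 0 member windows, against 4.84% and 0.301% of all, and the cAMP response element TGACGTCA was in 1. All were searched on both strands.

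In WT β cells, the member with the highest level was Syt13, an atypical synaptotagmin, at 546 ± 27.4 CPM (SD, n = 3). It was followed by Pclo (the presynaptic scaffold piccolo) at 513 ± 28.9, Ptprn (the granule membrane protein IA-2) at 499 ± 32.4 and Syt4 at 442 ± 32.7. The SDs of Syt13, Pclo and Ptprn overlapped. Next came Cplx2 (a complexin, which clamps and assists SNARE complexes) at 345 ± 42.9 and Syt7, a high-affinity calcium sensor, at 330 ± 55.1. The t-SNARE Snap25 stood at 241 ± 7.40, Sytl4 (granuphilin, a docking effector of RAB27A) at 225 ± 17.1, Napa (α-SNAP) at 187 ± 9.42 and Cadps (CAPS1) at 185 ± 18.9. Stx1a was the lowest of the 38 members that passed the filter on low counts, at 6.73 ± 1.10. The 2 remaining members did not pass it. Doc2b, a calcium sensor for sustained release, had 180 UMIs in all β cells and 3, 4 and 3 in α, δ and Ppy cells, and Cplx1 had 9 UMIs in β cells and 0 in the other endocrine classes.

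**Figure D1:**
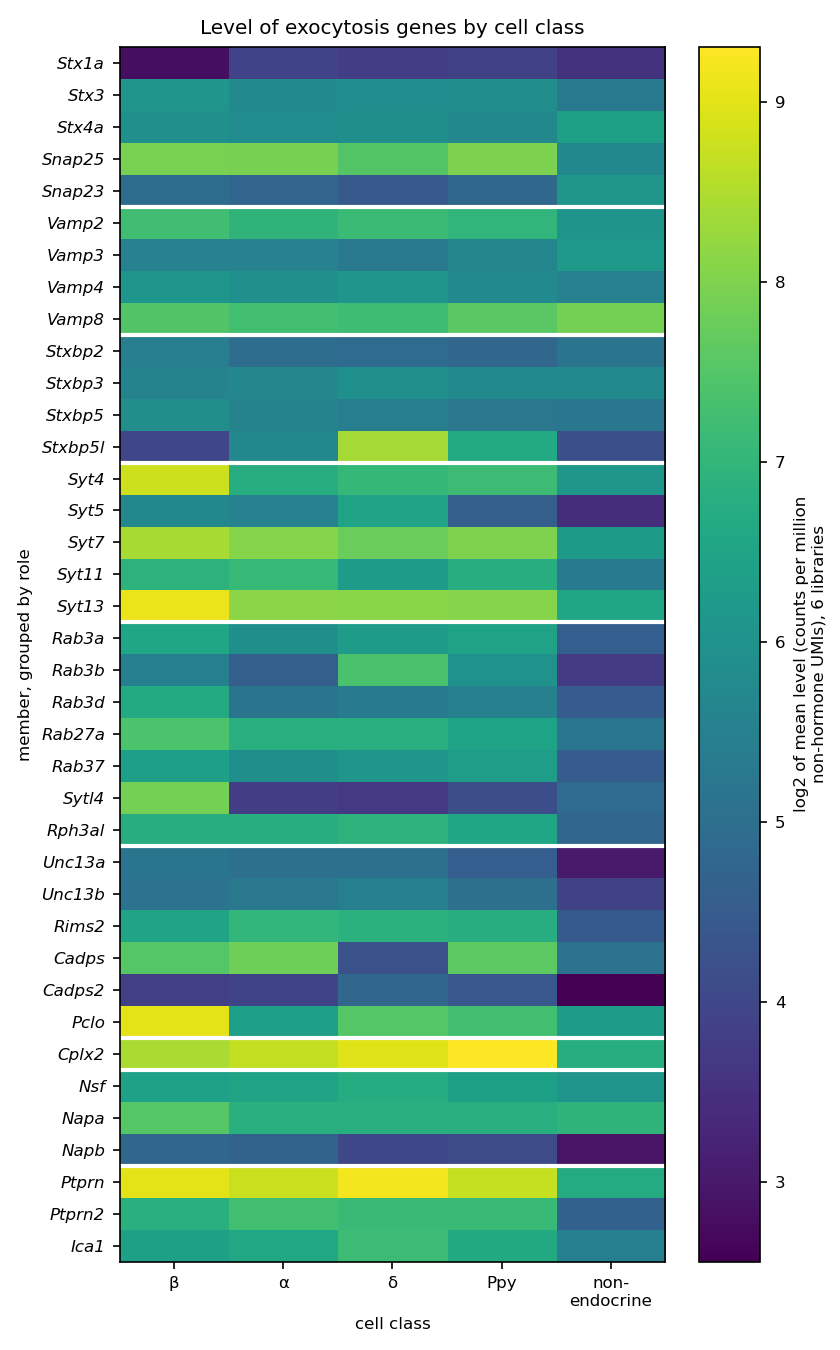
Mean level of the 38 members that passed the filter (rows, grouped by role) in 5 cell classes (columns), as log2 CPM of non-hormone UMIs over 6 libraries. Stxbp5l and Rab3b are brightest in δ cells, Sytl4 and Pclo in β cells, and Cadps is dark in δ cells.

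Across the 4 endocrine classes, the mean of the highest class was less than 2 times that of the lowest for 28 of 38 members (70.1% of all 11976 genes), and 4 or more times for 6 (14.0% of all genes). Only 2 of 38, Rph3al and Unc13b, were called in none of the comparisons of β with α, δ and Ppy cells, against 26.1% of all genes. The highest class was β for 16 members, δ for 11, α for 5, non-endocrine for 4 and Ppy for 2. In 15 members, every library of the highest class lay above every library of the next, as in 29.4% of all genes.

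Relative to α cells, 17 members were higher and 6 lower in β cells (edgeR, adjusted p under 0.05), where 25.4% of all 11976 genes were higher and 26.4% lower. Against δ cells 17 were higher and 11 lower (25.4% and 23.6% of all genes), and against Ppy cells 17 were higher and 7 lower (23.8% and 23.5%). Without the filter on low counts these counts became 23 and 4, 23 and 7, and 21 and 3, with the members' log2 differences shifted up by a median of 0.17, 0.23 and 0.21. Shares of all genes in that unfiltered fit are not given, so these counts have no background to be read against. With the 3 WT libraries alone, 9 were higher and 4 lower than in α cells (16.4% and 15.8% of all genes in that fit). In all, 10 of 38 members were higher in β cells than in each of the other 3 endocrine classes (13.5% of all genes): Sytl4, Pclo, Syt4, Syt13, Syt7, Rab3d, Rab27a, Stxbp2, Stxbp5 and Napa. Stxbp5l, Stx1a, Cplx2, Rims2 and Ptprn2 were lower than in each (11.0% of all genes). With WT libraries alone, 13 of the 23 calls against α cells were kept, among them those of Sytl4, Pclo, Syt4, Syt13 and Rab3d. Syt7, Rab27a, Stxbp2, Stxbp5 and Napa were not followed singly, and some of their calls against α cells were lost.

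**Figure D2:**
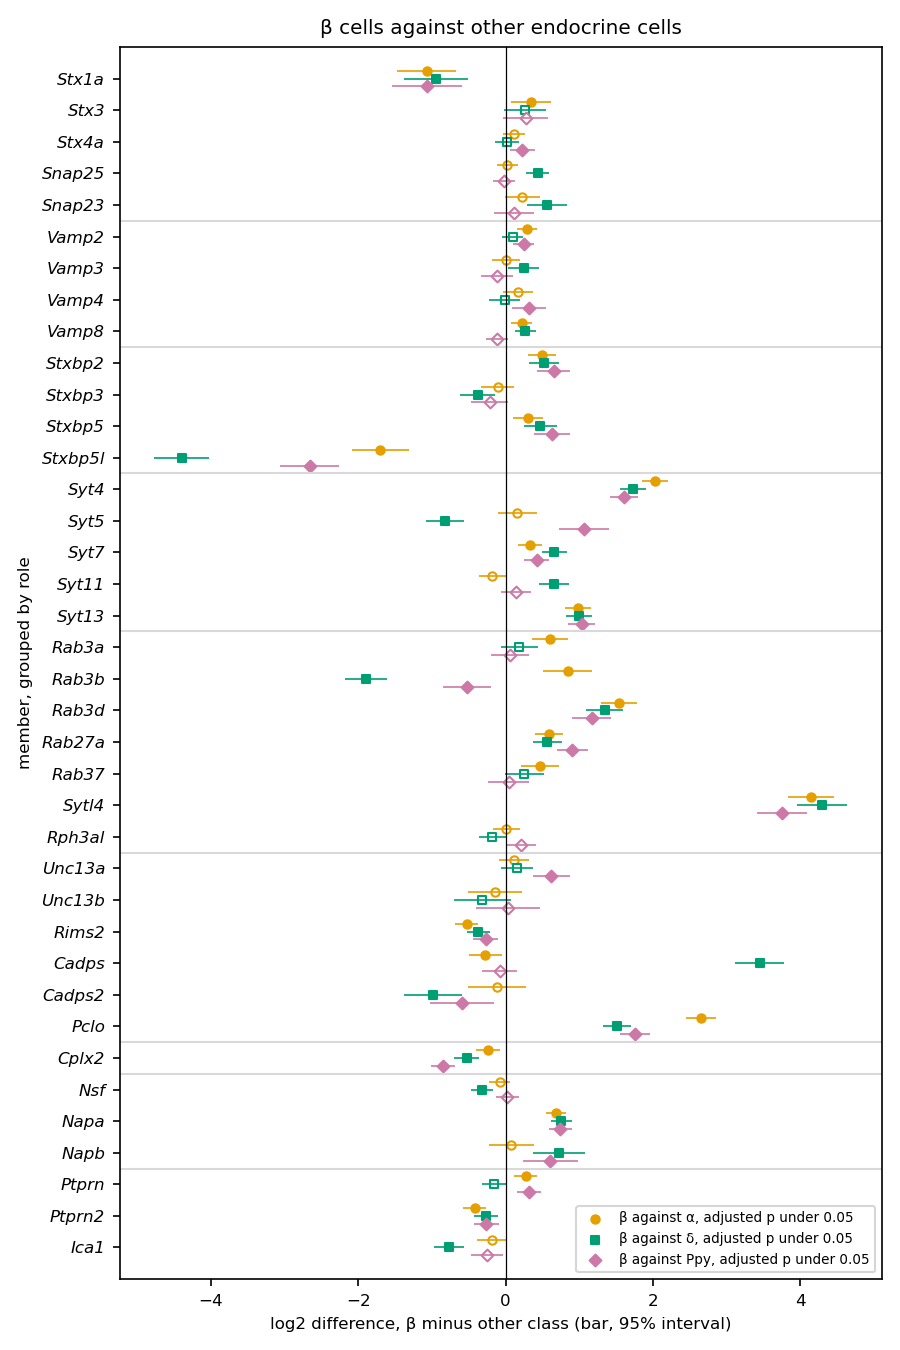
Log2 difference of each member between β cells and α, δ or Ppy cells (x axis; bars are 95% intervals, open symbols have an adjusted p of 0.05 or more). Sytl4 lies between 3.75 and 4.29 in the 3 comparisons, and Stxbp5l between −4.40 and −1.70.

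Among Rab GTPases and effectors, 6 of 7 were higher in β than in α cells, and 3 were higher and 1 lower than in δ cells and likewise than in Ppy cells, beside the shares of all genes given above. Sytl4 stood at 205, 236 and 234 CPM in the β cells of the WT libraries and at 224, 273 and 254 in those of the KO libraries. In α cells the 6 libraries gave 10.2 to 18.6, in δ cells 4.61 to 18.5 and in Ppy cells 6.68 to 32.6. No β library overlapped any library of another class, and the log2 differences were 4.14 (SE 0.153), 4.29 (SE 0.168) and 3.75 (SE 0.167). Sytl4 in other cells was set beside insulin RNA. As a share of the β cell level in all UMIs, Sytl4 had a median of 7.40% in α, 7.98% in δ and 6.61% in Ppy cells, where insulin RNA had 4.59%, 4.87% and 4.93%. The part of free RNA in these values was not tested. The small GTPase gene Rab3d averaged 103 ± 7.86 in β cells and 35.3 ± 6.64, 41.0 ± 5.95 and 45.2 ± 8.12 in α, δ and Ppy cells (SD, n = 6). Its log2 differences were 1.54, 1.34 and 1.17. Rab27a, which marks granules for docking, averaged 167 ± 11.7 in β cells and 89.4 to 112 in the other 3 classes.

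Rab3b went the other way between classes. Its mean was 164 in δ, 64.6 in Ppy, 44.1 in β and 24.4 in α cells, with ranges over the 6 libraries of 136 to 184, 43.4 to 88.6, 34.5 to 49.8 and 16.3 to 32.8. The δ libraries lay above every library of the other classes, and the Ppy and β libraries overlapped. Against α cells the log2 difference of β cells was 0.84 (SE 0.162), and against δ cells it was −1.89 (SE 0.139). The difference from Ppy cells, −0.53, was lost without WT replicate 1 (−0.35, edgeR adjusted p = 0.082), without the filter on low counts (−0.32, adjusted p = 0.125) and with a leading hormone 5 times the next (−0.47, adjusted p = 0.0623). Rph3al, a RAB effector, was called in none of the 3 comparisons.

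Among priming and scaffold proteins, Pclo and Cadps differed most. Pclo was 480 to 566 in β, 135 to 204 in δ, 139 to 170 in Ppy and 75.2 to 91.5 in α cells, and β libraries did not overlap those of any other class. The log2 differences of β cells were 2.65 from α, 1.51 from δ and 1.75 from Ppy cells. The gene contains 8 unnamed gene models on the same strand, whose reads could have been split from it. Cadps, which encodes the priming factor CAPS1, was 185 ± 12.3 in β, 225 ± 31.8 in α and 196 ± 31.2 in Ppy cells, but 18.8 ± 7.84 in δ cells (SD, n = 6). In δ cells the 6 libraries gave 10.5 to 32.5, against 166 to 204 in β cells, and the log2 difference was 3.45 between β and δ cells (SE 0.161) and 3.72 between α and δ cells (SE 0.165). In all UMIs, hormone genes included, the δ level was a median 13.9% of the β level, where insulin RNA stood at 4.87%. Its paralog Cadps2 was the reverse: δ cells held 27.7 ± 2.36 and β cells 14.3 ± 3.02 (log2 difference −0.98, edgeR adjusted p = 0.000103). The Cadps difference between β and α cells, −0.27, lost its call without WT replicate 1, 2 or 3 or KO replicate 2 (−0.31 to −0.16). It was also lost without the filter on low counts (−0.10, edgeR adjusted p = 0.609) and under 5 other settings, namely hormone genes kept, the leading hormone merely the largest, a minimum of 10000 UMIs, WT libraries alone and KO cells with a Ywhaz UMI left out (−0.37 to −0.22). Cadps2 was lower in β than in Ppy cells by −0.59, a call lost without any 1 of the 3 KO replicates (−0.57 to −0.52), without the filter on low counts (−0.38, edgeR adjusted p = 0.207) and in WT libraries alone (−0.44, adjusted p = 0.356). Rims2, a scaffold of the release site, was lower in β cells than in α cells by −0.53 and than in δ cells by −0.37. Its difference from Ppy cells, −0.27, was not called without the filter on low counts (−0.06, edgeR adjusted p = 0.816) or in WT libraries alone (−0.28, adjusted p = 0.0539).

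Of the synaptotagmins, Syt4, Syt13 and Syt7 were higher in β cells than in each other endocrine class. Syt4 was 394 to 500 in β cells and 98.0 to 132, 120 to 171 and 126 to 165 in α, δ and Ppy cells, giving log2 differences of 2.03, 1.73 and 1.61. Syt13 was 526 to 577 in β cells and 237 to 321 over the other 3 classes, with log2 differences of 0.98, 1.00 and 1.03. Syt7 was 266 to 362 in β cells and overlapped the α and Ppy libraries, with log2 differences of 0.33, 0.66 and 0.42. Syt5 was lower in β than in δ cells by −0.82 and higher than in Ppy cells by 1.06. Syt11 was lower in δ than in α cells, with 62.5 to 85.8 against 130 to 147 over the 6 libraries (α minus δ, 0.83 on the log2 scale).

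Stxbp5l, which encodes tomosyn-2, a protein that holds SNAREs back from fusion, had the widest range of the SM protein and tomosyn group. It was 321, 355 and 372 CPM in δ cells of WT replicates 2, 1 and 3 and 270 to 356 in those of KO libraries. Ppy cells held 65.1 to 117, α cells 41.8 to 60.2 and β cells 11.1 to 20.7, and none of these 4 ranges overlapped. The log2 differences of β cells were −1.70 (SE 0.189), −4.40 (SE 0.180) and −2.66 (SE 0.195), and α cells stood 2.70 below δ cells on the same scale. Stxbp5, encoding the related tomosyn-1, was higher in β cells, by 0.30, 0.47 and 0.63. Stxbp2 (MUNC18-2) was higher by 0.49, 0.52 and 0.65.

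**Figure D3:**
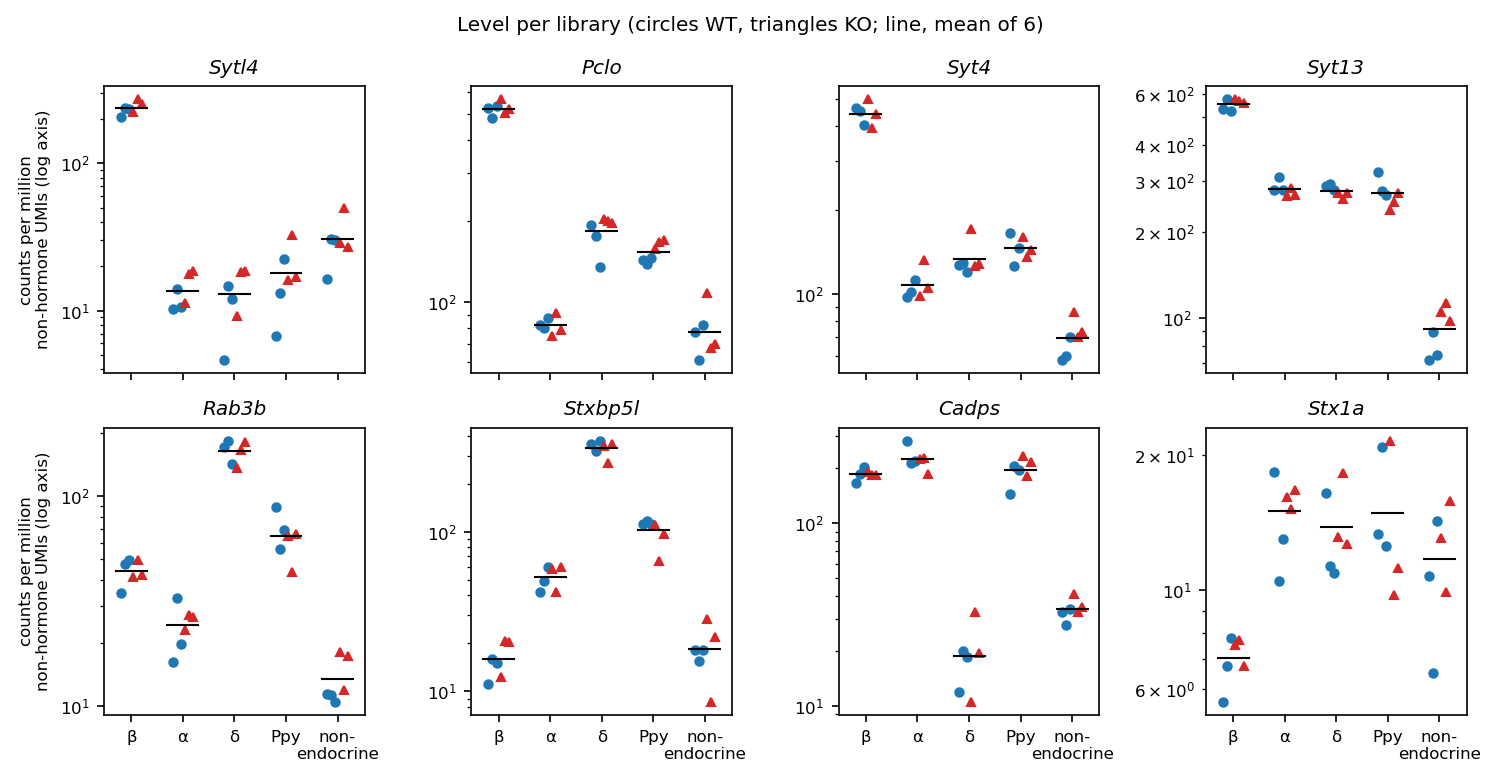
Level of 8 members in each library and class, in CPM of non-hormone UMIs on a log axis (circles WT, triangles KO, line the mean of 6). Stxbp5l spans 11.1 to 20.7 in β and 270 to 372 in δ cells, and Sytl4 205 to 273 in β and 10.2 to 18.6 in α cells.

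Among SNARE genes, Stx1a differed most between β and other endocrine cells. This plasma membrane syntaxin was 5.62 to 7.82 in β cells and 10.5 to 18.4 in α cells, and the log2 difference was −1.07 (SE 0.192). The values rest on 880 UMIs in β cells and 144 in α cells. The difference from δ cells, −0.94, was not called when the leading hormone had to be 5 times the next (−0.63, edgeR adjusted p = 0.180). Snap25 was 0.43 higher in β than in δ cells. For the vesicle SNAREs Vamp2, Vamp3, Vamp4 and Vamp8, the log2 differences of β from α, δ and Ppy cells stayed between −0.12 and 0.32. The last exon of Vamp3 overlaps Camta1 on the same strand, so that its reads could be shared. Of the genes that disassemble SNAREs, Napa was higher in β cells by 0.69, 0.76 and 0.74. Cplx2 was highest in Ppy cells, at 632 ± 96.9 against 349 ± 28.9 in β cells (log2 difference −0.85). Its difference from α cells, −0.24, was not called without WT replicate 1 (−0.18, edgeR adjusted p = 0.0559), without the filter on low counts (−0.07, adjusted p = 0.655), with a leading hormone 5 times the next (−0.20, adjusted p = 0.0847) or in WT libraries alone (−0.31, adjusted p = 0.0515). Ica1, a granule-associated autoantigen, was 145 ± 12.4 in δ and 84.2 ± 3.66 in β cells (log2 difference −0.77). Ptprn2, the homologue of IA-2, was lower in β than in α cells by −0.42.

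In α against δ cells, 5 members were higher and 12 lower (17.7% of all genes in each direction). Cadps, Syt11, Napb, Snap25 and Syt7 were the 5 higher in α cells, by 3.72, 0.83, 0.65, 0.41 and 0.33. Rab3b, Stxbp5l and Pclo were lower by −2.73, −2.70 and −1.15, followed by Syt5 (−0.98), Cadps2 (−0.87) and Ica1 (−0.59). With WT libraries alone the counts were 3 and 6 (8.44% and 9.86% of all genes in that fit), and the calls of Napb (edgeR adjusted p = 0.103), Syt7 (adjusted p = 0.0598) and Cadps2 (adjusted p = 0.0533) were lost. That of Cadps2 was also lost with a leading hormone 5 times the next (−0.85, adjusted p = 0.0696).

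Of 85 other exocytosis genes, 67 were tested across classes. Relative to α cells 26 were higher and 15 lower in β cells (25.4% and 26.4% of all genes), relative to δ cells 24 and 18 (25.4% and 23.6%), and relative to Ppy cells 24 and 17 (23.8% and 23.5%). Mlph, a RAB27A effector that binds myosin Va, was 5.49, 5.00 and 3.78 higher in β cells on the log2 scale. Sytl2, Rab27b and Rab3c were lower than in α cells by −4.80, −4.14 and −4.09, and than in Ppy cells by −5.62, −4.80 and −3.69. Syt1 and Syt6 were lower than in δ cells by −4.75 and −4.49.

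Against non-endocrine cells, 31 members were higher and 5 lower in β cells (38.7% and 41.0% of all genes), with a median log2 difference of 1.72 against −0.03 over all genes. The largest were Sytl4 (3.02), Pclo (2.76), Syt4 (2.68), Syt13 (2.60), Cadps (2.47) and Ptprn (2.34). The 5 lower ones were the widely used SNAREs Snap23 (−1.18), Vamp3 (−0.67), Stx4a (−0.45) and Vamp8 (−0.44), together with Stx1a (−0.69, not called in WT libraries alone, edgeR adjusted p = 0.0609). In 18 members, every library of every endocrine class was above every non-endocrine library, as in 10.5% of all genes. In all UMIs, median insulin RNA in non-endocrine cells was 9.12% of the β level, and Sytl4 stood at 17.0%, Pclo at 20.5% and Cadps at 25.2%.

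The non-endocrine class was mixed, and B- and T-like cells made up 4.89% to 77.0% of it by library. Subclass and marker levels in this paragraph are without TMM. In the 1268 endothelial-like cells, Snap23 averaged 110 and Vamp3 116 CPM, and Sytl4 13.6, Pclo 21.5 and Cadps 8.53. In these cells Pclo and Cadps were at or below the insulin ratio in 3 of 6 libraries each, and above it in the other 3. The 611 macrophage-like cells held Vamp8 at 314, and in T-like cells Rab27a ranged from 30.5 to 157 over 5 libraries, 1 of which had 11 such cells. The 384 ductal-like cells held Ptprn at 267 (114 to 386 over libraries), Cplx2 at 248 (146 to 381) and Stxbp5l at 69.8 (27.8 to 128), with means above those of all other non-endocrine subclasses listed here. This label needed UMIs of 2 genes among Krt19, Krt7, Spp1 and Sox9, and endocrine cells also held 2 of these: Krt7 averaged 396 CPM in β cells against 157 in non-endocrine cells, and Spp1 914 in Ppy against 711 in non-endocrine cells. The label was thus not specific to ductal cells, and insulin RNA in these cells was a median 11.7% of the β level. The part of RNA from endocrine cells in these values was not tested.

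**Figure D4:**
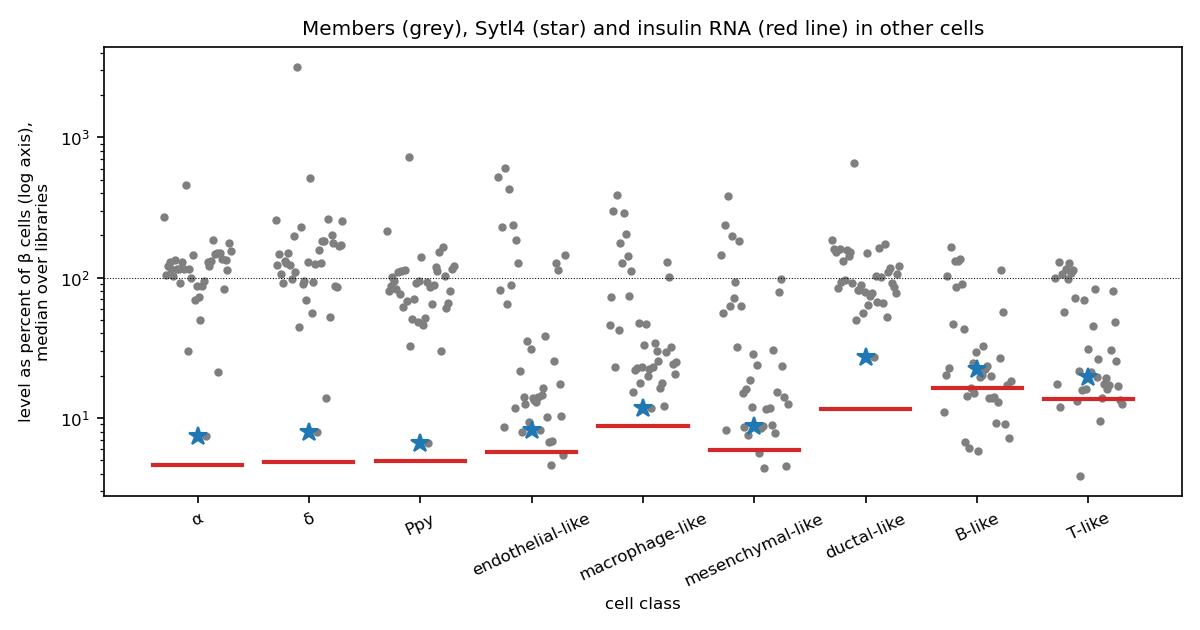
Level of 38 members (grey points; star, Sytl4) in other cells as a percentage of the level in β cells, on a log axis, median over libraries. The red line is insulin RNA (Ins1 and Ins2), at 4.59% in α and 5.68% in endothelial-like cells; all members lie above it in α, δ and Ppy cells.

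The deletion of Ywhaz was then examined in each class. The study removed β cells with incomplete deletion, and here a KO β cell was left out if it held any Ywhaz UMI, a criterion set for this comparison. Levels in these comparisons were normalised within each class, so they differ slightly from those given between classes. This kept 1974 of 3548 KO β cells, and 36 members were tested. Stx1a and Stxbp5l were also below the filter here. No member was called by edgeR (0.0104% of 9584 genes were), and 0 had an unadjusted p under 0.05. DESeq2 called 0, with 1 at an unadjusted p under 0.05. These tests did not use the same-numbered pairs, and the closing section gives the fit that did. Shares of all genes at an unadjusted p under 0.05 are not given here or below, so such counts have no background. The median log2 difference was 0.04 (0.00 over all genes), with 24 members higher and 12 lower. Every member's 95% interval lay within 1 log2 unit of 0, and 33 of 36 lay within 0.5, the limits running from −0.61 to 0.59.

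The lowest p was that of Sytl4. It was 217, 247 and 245 CPM in WT and 241, 311 and 278 in KO β cells. The groups overlapped, but KO was above WT in each same-numbered pair. The log2 difference was 0.23 (SE 0.103, edgeR adjusted p = 0.877), and with the pairs as a block it was 0.22 (edgeR adjusted p = 0.256). Stx4a was 62.0, 60.6 and 62.5 in WT and 66.1, 67.9 and 67.7 in KO β cells, with no overlap and a difference of 0.12 (SE 0.0594). Snap23 was 38.8, 32.7 and 32.9 in WT and 32.7, 29.1 and 29.9 in KO β cells, a difference of −0.19 (SE 0.0946). Syt11, Ptprn and Stx3 differed by −0.19, 0.14 and 0.14. Without WT replicate 1 the difference of Snap23 was −0.10 and that of Syt11 −0.11, and without KO replicate 2 that of Syt11 was −0.12 and that of Sytl4 0.13. In 3 members (Syt13, Stx4a and Rab27a) all KO libraries lay above WT, and in Snap23 and Unc13a all lay below, where 11.5% of all genes did not overlap between genotypes.

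**Figure D5:**
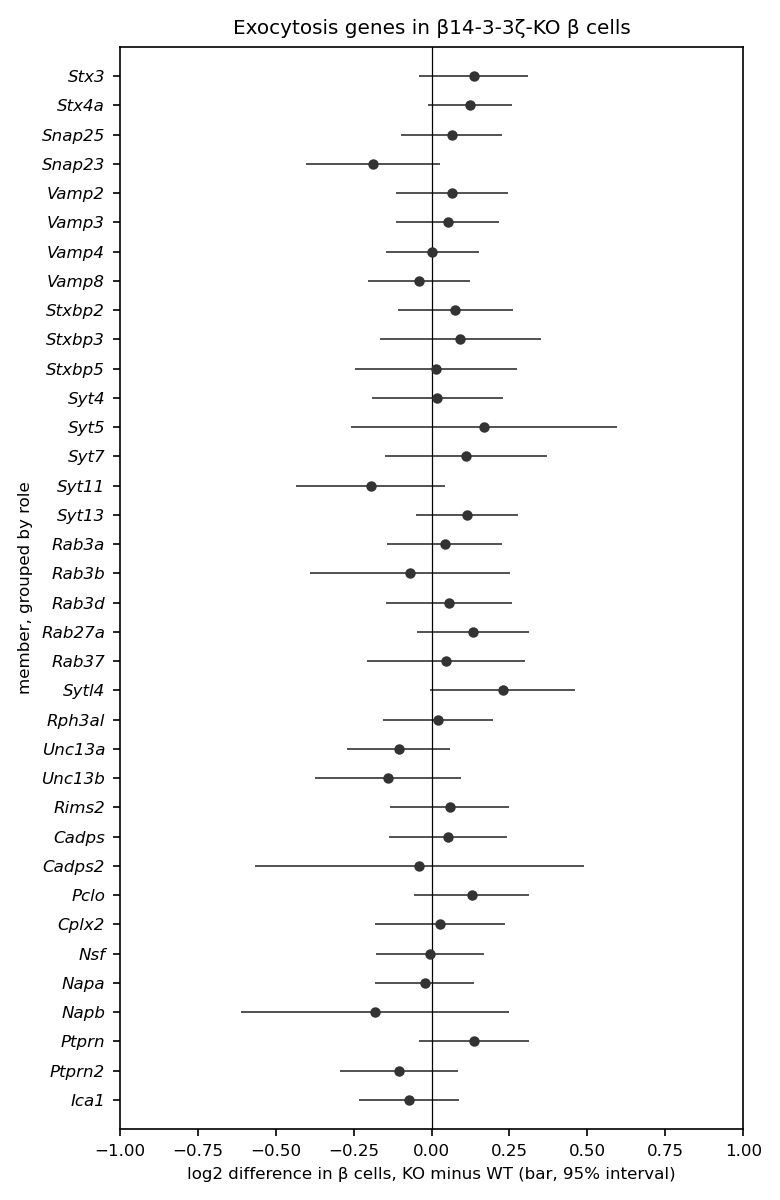
Log2 difference between KO and WT β cells for the 36 members tested (points; bars are 95% intervals), grouped by role. The points lie between −0.19 and 0.23.

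In the other classes 38 members were tested and none was called by edgeR or DESeq2, where edgeR called 0.00974% of genes in α, 0.0% in δ, 0.0111% in Ppy and 0.0% in non-endocrine cells. Members with an unadjusted p under 0.05 numbered 2, 0, 1 and 4 by edgeR and 1, 0, 0 and 4 by DESeq2. The shares of all genes above are for adjusted p, so these counts have no background to be read against. In α cells, Vamp8 was 177, 160 and 174 in WT and 133, 144 and 137 in KO libraries (−0.30, SE 0.0991, edgeR adjusted p = 1.00), and Rab27a was 0.27 higher. Sytl4, Unc13a, Ica1 and Rab37 differed by 0.48, 0.27, −0.16 and −0.18. Without WT replicate 1 the values of Unc13a and Rab27a were 0.16 and 0.17, and without KO replicate 3 those of Ica1 and Rab37 were −0.08 and −0.12. The median insulin share of α cells was 0.388%, 2.32% and 1.29% of UMIs in the WT and 1.37%, 3.31% and 2.25% in the KO replicates, and in δ and Ppy cells too it was higher in KO in each same-numbered pair. The part of β cell RNA in the Sytl4 differences of these classes was not tested. Those differences rest on 139 Sytl4 UMIs in α, 77 in δ and 88 in Ppy cells over all libraries. In Ppy cells of WT replicate 1 there were 4. In δ cells Pclo was 208, 191 and 146 in WT and 218, 217 and 215 in KO libraries (0.24, SE 0.122), and Ptprn2, Syt4, Cplx2, Stxbp2 and Sytl4 differed by −0.21, 0.21, −0.14, −0.31 and 0.51. The value of Sytl4 fell to 0.053 without WT replicate 1 and reached 0.90 without WT replicate 2 or KO replicate 1. Without KO replicate 1, that of Syt4 was 0.03 and that of Stxbp2 −0.16. Pclo was 0.12 without WT replicate 3, Ptprn2 −0.14 without KO replicate 2 and Cplx2 −0.09 without WT replicate 1. In Ppy cells Stxbp5l was 118, 122 and 116 in WT and 114, 68.4 and 101 in KO libraries (−0.37, SE 0.166), and Pclo, Sytl4, Stxbp3, Rab37 and Syt13 differed by 0.21, 0.62, 0.30, −0.25 and −0.17. Without KO replicate 2 the value of Stxbp5l was −0.16 and that of Sytl4 0.17, and without WT replicate 3 that of Sytl4 was 1.09. Without WT replicate 1 Syt13 was −0.10 and Sytl4 0.36. The genotypes did not overlap in 3 members in each of α, δ and Ppy cells, against 9.43%, 8.76% and 10.9% of all genes. The intervals were wider than in β cells, with 25, 29 and 20 of 38 within 0.5 log2 units of 0 in α, δ and Ppy cells.

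In non-endocrine cells 31 of 38 members were higher in KO libraries, with a median of 0.16 (0.00 over all genes), and in 11 every KO library lay above WT (3.15% of all genes did, and 5.33% did not overlap in either direction). Syt5 was 6.15, 7.62 and 7.78 in WT and 11.4, 10.0 and 11.1 in KO libraries (0.59, SE 0.174, edgeR adjusted p = 1.00). The 95% intervals lay within 0.5 log2 units of 0 for 10 of 38 members and within 1 for 30, the limits running from −1.29 to 1.29. Syt13, Rph3al, Ptprn, Rab3b and Syt7 differed by 0.41, 0.42, 0.35, 0.50 and 0.35. The median insulin share of these cells was 1.15%, 7.55% and 2.45% of UMIs in the WT and 2.41%, 9.99% and 4.71% in the KO replicates. B- and T-like cells took 45.5%, 77.0% and 9.55% of the WT and 4.89%, 73.8% and 31.5% of the KO replicates. The part of either in the result was not tested. Without B- and T-like cells, a choice made after seeing the data, the median was 0.13, with 26 of 38 higher and 1 at an unadjusted p under 0.05. The genotype difference itself did not differ between β and α cells for any member past the threshold (limma-voom, 38 tested, 0 called, 1 at an unadjusted p under 0.05, 0.00757% of genes called).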

How the data were processed

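Islet cells were sequenced with the 10x Chromium 3′ v3.1 kit, and the authors deposited UMI counts per gene and barcode. The submitters' processing notes name Cell Ranger 6.0.2, Seurat and mm10. Barcodes were kept with at least 500 genes and at most 10% mitochondrial UMIs. Scrublet's own threshold marked under 0.5% of barcodes in each library, so the top-scored share, 0.8% per 1000 barcodes, was removed as doublets. Endocrine cells needed at least 5000 UMIs, raised to 10000 in β cells after KO replicate 2 was seen to hold 787 shallow insulin-led barcodes (at most 47 in the others). They also needed a leading hormone of at least 20% (insulin) or 5% of UMIs, and under 0.5% on any non-endocrine list. Non-endocrine cells had hormones under 20% and at least 3 UMIs on 2 genes of a marker list, which named the "-like" subclass.

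Counts were summed per library and class and tested with edgeR 4.0.16 (quasi-likelihood, TMM, Benjamini-Hochberg over all genes tested), between classes with a term per library, and the genotype-by-class term with limma 3.58.1. In β cells, genes needed a UMI in more than 15% of cells of a genotype, and filterByExpr was used elsewhere. DESeq2 1.42.0 and the other alternatives are in the closing section. The 7 hormone genes were left out of totals. The members and lists were chosen with earlier results of these data known. Members with values were the 6 of lowest p per genotype comparison, the 10 highest in WT β cells, up to 6 called in each direction per class comparison, and up to 4 called other exocytosis genes. Promoter motifs were chosen after the values were seen. Same-numbered WT and KO libraries deviated together (r = 0.603, 0.472 and 0.184 over 5595 genes). The numbers were therefore treated as pairs in an alternative fit with a replicate block. All other genotype tests, with their intervals and p-values, left these pairs out. Scripts were tested on simulated data. Coordinates of gene models are from GENCODE vM21. One marker result is not reported here.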

Additional observations from a re-analysis of the deposited data

Results flagged for a closer look

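In Syt13 and Unc13a, every KO library lay on opposite sides of the WT libraries in different cell classes. Genotypes did not overlap in 11.5% of all genes in β, 9.43% in α, 8.76% in δ and 5.33% in non-endocrine cells. The share of all genes that lay on opposite sides in different classes was not counted. The log2 difference of Syt13 was 0.11 in β cells and 0.41 in non-endocrine cells, where all KO libraries were above WT, and −0.091 in δ cells, where all were below. Unc13a, a priming factor, was 0.27 in α and −0.11 in β cells. The genotype difference in β minus that in α cells was 0.19 for Syt13 and −0.37 for Unc13a and was not called (limma-voom), and for Syt13 between δ and the other classes the difference was not tested.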

How the results depend on the processing

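No member was called between genotypes under any alternative run, but single values moved when 1 library was left out, for Sytl4 from 0.13 to 0.32 in β, 0.35 to 0.64 in α, 0.053 to 0.90 in δ and 0.17 to 1.09 in Ppy cells. With a replicate block, 0 members were called in β, α, δ, Ppy and non-endocrine cells, so pairing changed no call. In β cells 4 members then had an unadjusted p under 0.05 (lowest edgeR adjusted p = 0.256), rather than the 0 of the unpaired fit. No share of all genes is given for that count. Of 160 recomputed counts whose reported count was above 0, 155 stayed within 1.5 times of it, among them all those with a minimum of 5000 UMIs in β cells and those without any 1 library. Without the filter on low counts, 7 members rather than 11 were lower in β than in δ cells and 3 rather than 7 lower than in Ppy cells, with the upward shift given above. No share of all genes is given for that fit. With WT libraries only, 9 rather than 17 members were higher in β than in α cells, 3 rather than 5 higher and 6 rather than 12 lower in α than in δ cells, in a fit with fewer samples. No called member changed sign. Single values were recomputed only for the members picked for values by the rule given under data processing. Of 928 such values reported as called, 30 lost their call, mainly those of Cadps, Cadps2, Cplx2 and Rab3b. Other called members were not followed singly, and their losses appear only in the counts above. The α, δ and Ppy comparisons rest on 23 to 187 cells per library.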
